A study of Mus musculus with 7 samples.

Results

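Amphiregulin (Areg) and 9 further genes of the epidermal growth factor (EGF) family were followed in the stem cells of mouse skeletal muscle, called satellite cells, at young and geriatric age. The 10 genes were the ligands Areg, Ereg, Egf, Tgfa, Hbegf, Btc and Nrg1 and the receptors Egfr, Erbb2 and Erbb3. They were taken as every array probe, other than controls, that carried one of these gene names, which gave 12 probes of 55681, for 10 of 36406 names on the array. The set was chosen on the Areg signal of these same arrays, which was low in geriatric cells, so the Areg difference is given as a description with no test; the other genes were added as its family. All mice were male and of strain C57BL/6, and the labels name no treatment and no genetic alteration in either group. Young arrays 1 to 3 came from mice of 2, 2 and 3 months and geriatric arrays 1 to 4 from mice of 28, 28, 29 and 30 months. Flow cytometry had kept cells positive for integrin α7 and for CD34 and removed those with CD31, CD45, CD11b or Sca1. Because so few cells were obtained, RNA was amplified by a whole-transcriptome method before labelling with Cy3 and 1-colour hybridisation. Geriatric arrays 1 and 2 carried 1 sample name and were averaged, which left 3 young and 3 geriatric samples.

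EGF family ligands are made as membrane-anchored precursors, and metalloproteinases of the ADAM family release them from the cell surface. Released ligand binds EGFR or its relatives ERBB3 and ERBB4, which pair with one another or with ERBB2, a receptor that has no known ligand of its own, and start the RAS-ERK and PI3-kinase cascades. Amphiregulin, epiregulin (Ereg), EGF, TGF-alpha, HB-EGF and betacellulin (Btc) bind EGFR, whereas neuregulins such as Nrg1 bind ERBB3 and ERBB4. In muscle, amphiregulin is best known as a factor that regulatory T cells and other immune cells supply to satellite cells during repair, so its RNA in the satellite cells themselves is a separate quantity.

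The probe sequences below are those through which amphiregulin, the brightest receptor probe and the most variable receptor were read, given with mm9 positions from the array files. The Areg probe lies at chr5:91570090-91570149 on the plus strand, the Egfr probe at chr11:16783556-16783615 on the plus strand and the Erbb3 probe at chr10:128006424-128006483 on the minus strand. Each is the transcript strand from 5′ to 3′, and capitals in the Erbb3 probe mark TGA, the stop codon reached when it is read from its first base.
Areg: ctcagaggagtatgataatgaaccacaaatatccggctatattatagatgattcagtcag
Egfr: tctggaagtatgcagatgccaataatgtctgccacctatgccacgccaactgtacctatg
Erbb3: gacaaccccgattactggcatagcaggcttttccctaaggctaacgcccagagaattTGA

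The stretch of 120 bases before the Areg start site is shown because cyclic AMP signalling, which acts through cAMP response elements, is a known inducer of Areg, and genes of that pathway are described further on. It is RefSeq sequence of GRCm38.p6, plus strand, chr5:91139479-91139598, and capitals mark TGACGTCA, the full cAMP response element, at bases -61 to -54 and TATAAA, a core promoter box, at bases -31 to -26 from the start site.
Areg promoter: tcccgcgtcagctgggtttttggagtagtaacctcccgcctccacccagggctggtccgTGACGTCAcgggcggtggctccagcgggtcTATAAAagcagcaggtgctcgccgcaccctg
In windows of 300 bases, with both strands searched, TGACGTCA was present in 588 of 32851 promoters (1.79%), TATAAA in 4473 (13.6%) and both in 56 (0.17%). The 2 motifs share no base in the Areg window. Of the 6 genes with a window in the table (Areg, Egf, Tgfa, Btc, Egfr and Erbb2), 1 held TGACGTCA. These matches describe letters in a window and were not measured as binding sites.

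The satellite cell label was checked first: all 10 satellite cell markers were well above background, in the scanner software's flag (the background limit below), on all 7 arrays. Pax7, the transcription factor that defines these cells, stood at 4.09, 4.46 and 3.72 in young and 4.11, 4.36 and 3.92 in geriatric samples, in log2 of the signal relative to the array's 75th percentile, the scale used for every level below. Myf5, an early myogenic regulator, stood at -2.54 to -1.85 in young and -2.03 to -1.68 in geriatric samples. Between 38052 and 41293 of the 55681 probes were well above background per array, and the 75th percentile lay at 1330 to 1609 intensity units. With limma, 7 of 27393 tested features passed an adjusted p of 0.05 (0.0256%), 3 higher and 4 lower in geriatric cells. The number of arrays limits the precision of every value, and in sorted bulk RNA, fewer cells of a type and less RNA per cell cannot be told apart. The labels do not say whether a sample was 1 mouse or a pool, so a p-value here weighs a difference only against the spread of these 6 samples.

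Of the 10 genes, 6 were tested (Areg, Hbegf, Btc, Egfr, Erbb2 and Erbb3, well above background on at least 3 of 7 arrays) and 4 were not (Ereg, Egf, Tgfa and Nrg1). Among tested genes 3 were higher and 3 lower in geriatric cells, and 49.7% of all features were higher. None of the 5 tested genes other than Areg passed, 0 of 5 against 0.0256% of all features in limma's test. The young and geriatric samples did not overlap for Areg, which was lower, and for Btc, which was higher. Among all tested features 5.65% were lower and 7.18% higher without overlap. Areg passed the filter on low signals through its young arrays and Btc through its geriatric arrays, so their separation is a description and supports nothing. The plot of all 12 probes shows these 2 genes on opposite sides, with a far smaller spread for the brightest Egfr probe.

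**Figure D1:**
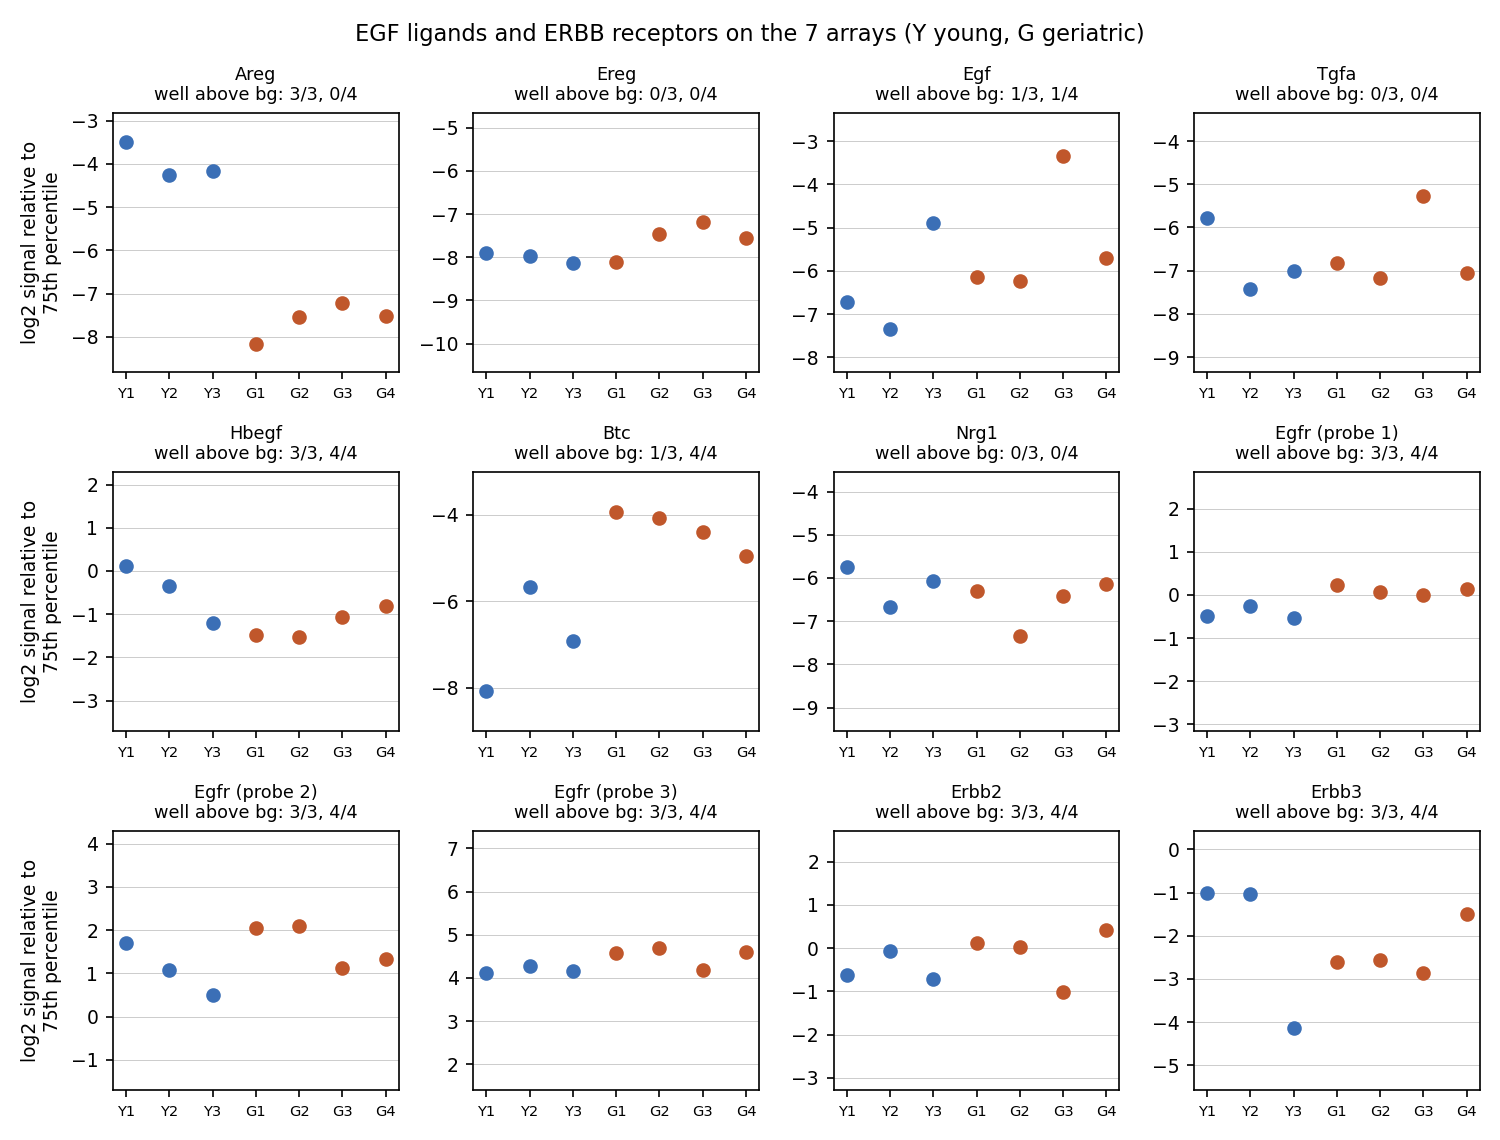
Log2 processed signal relative to the 75th percentile of each array, for the 12 probes of the 10 genes on young arrays Y1 to Y3 (blue) and geriatric arrays G1 to G4 (orange), with the number of arrays well above background in each group. Each panel has its own range of at least 6 log2 units; Areg was -4.25 to -3.48 in young and -8.16 to -7.22 in geriatric arrays, and Btc was -8.09 to -5.67 in young and -4.96 to -3.93 in geriatric arrays.

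Areg, an autocrine and paracrine ligand of EGFR, gave processed signals of 129 ± 14.1, 80.0 ± 9.96 and 89.6 ± 10.5 intensity units on the 3 young arrays, where the error is the scanner software's own estimate for the spot. On the 4 geriatric arrays it gave 5.55, 7.56, 10.6 and 7.23, each about as large as its error and each a surrogate value that the software sets in place of a signal near background. All 3 young arrays and 0 geriatric arrays had the probe well above background, a pattern shared by 83 of 27393 features (0.303%). Before any background correction the spots read 149 to 196 units in young and 65.0 to 78.2 in geriatric cells, so the groups were also apart in the raw signal. On the relative log2 scale the samples stood at -3.48, -4.25 and -4.17 in young cells and at -7.85, -7.22 and -7.52 in geriatric cells, with means of -3.97 ± 0.42 and -7.53 ± 0.32 (SD, n = 3). Every geriatric sample was thus below every young sample, and Areg was at least 3.25-fold lower in geriatric cells. This bound sets the young mean against the higher of the probe's own signal and the dimmest signal called well above background on each geriatric array.

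The size of the Areg difference followed the handling of background more than the choice of samples. The log2 difference, geriatric minus young, was -3.57 from processed signals, -3.84 after quantile normalisation, -1.10 with normexp background correction and -1.20 in the authors' values. The bound of 3.25-fold therefore holds for the background-subtracted signal alone. Leaving out any 1 array or sample gave -3.72 to -3.32. The descriptions end in digits that the labels do not explain and that were read here as slide positions, which puts all young arrays and geriatric array 1 in row 1 and geriatric arrays 2 to 4 in row 2. Within row 1 the difference was -4.19, from 1 geriatric array.

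Btc encodes betacellulin, a ligand of EGFR and ERBB4, and its differences ran the other way. Its processed signals were 5.30, 30.0 and 13.3 units on the young arrays and 104, 84.5, 75.6 and 42.8 on the geriatric arrays. 1 young array and all 4 geriatric arrays had it well above background, and 123 of 27393 features (0.449%) reached that flag on at most 1 young and on all 4 geriatric arrays. The samples stood at -8.09, -5.67 and -6.92 in young and at -3.998, -4.39 and -4.96 in geriatric cells. All geriatric samples lay above the highest young sample, and the young samples were spread more widely. The means were -6.90 ± 1.21 and -4.45 ± 0.48 (SD, n = 3), a log2 difference of 2.45 (SE 0.64) that did not pass in limma (adjusted p = 0.461). The size of that difference is uncertain, because young arrays 1 and 3 held no signal above the background limit. The difference was 0.74 with normexp and 0.65 in the authors' values, 1.85 without young array 1, and 2.97 within slide row 1. Over all settings the adjusted p was 0.175 to 0.809. Geriatric arrays 1 and 2 differed by 0.14 for this probe.

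Hbegf, which encodes the heparin-binding ligand of EGFR and ERBB4, was the only ligand of the 7 well above background on all 7 arrays. Its signals were 1556, 1194 and 699 units on the young arrays and 564, 492, 761 and 761 on the geriatric arrays. Young arrays 1 and 2 were highest, and young array 3 lay inside the geriatric range, so the groups overlapped. The log2 difference was -0.64 (SE 0.39; limma adjusted p = 0.796), -0.34 without young array 1, -0.9996 without young array 3 and -1.005 within slide row 1.

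The remaining ligands gave little or no signal, and none was tested. Ereg, which encodes epiregulin, never reached the background limit and read 5.71 to 6.08 units in young and 5.75 to 10.9 in geriatric cells, so no order can be read from it. Egf, printed as 10 spots per array, was well above background on young array 3, at 54.6 ± 7.67 units, and on geriatric array 3, at 156 ± 18.7, and read 10.1 to 25.7 on the other 5 arrays. That leaves 1 array of each group with a measured level. Tgfa, a ligand of EGFR alone, read 10.1 to 41.4 units and Nrg1, the first of the neuregulins, 8.78 to 26.7, with no array well above background for either.

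Egfr, the gene of the receptor for Areg, was read by 3 probes, all well above background on every array. The probes are tied to different transcripts, as given below, so each level is that of its probe. The brightest, the one printed above and the one tested, gave 24853, 29650 and 28905 units on the young arrays and 37585, 36858, 28855 and 32321 on the geriatric arrays. Geriatric array 3 lay inside the young range, and the groups overlapped. The levels were 4.18 ± 0.09 (young) and 4.47 ± 0.25 (geriatric; SD, n = 3), a log2 difference of 0.29 (SE 0.19; limma adjusted p = 0.809). The difference was positive under every setting tried, at 0.21 to 0.44, and 0.39 within slide row 1.

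The other Egfr probes differed in the same direction, by amounts that depended on the probe. The probe at chr11:16787172-16787231 gave 4702, 3226 and 2261 units in young and 6563, 6088, 3463 and 3349 in geriatric cells, a difference of 0.42 (SE 0.41) with overlapping groups. The probe at chr11:16813815-16813874, printed as 10 spots, gave 1032, 1288 and 1107 units in young and 1861, 1500, 1590 and 1472 in geriatric cells. Every geriatric sample was above every young sample on it, at 0.10 ± 0.08 against -0.42 ± 0.16, a difference of 0.53 (SE 0.18), but the adjusted p over all 41251 tested probes was 0.595 in limma. The array annotation ties the first 2 probes, the tested one among them, to the RefSeq transcript NM_007912 and the third to NM_207655. Levels of different probes cannot be set against one another. Which probes read RNA of the complete signalling receptor was not tested, so the tested level is not taken as the level of that receptor.

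Erbb2, the receptor without a ligand of its own, gave 932, 1462 and 983 units on the young arrays and 1708, 1444, 790 and 1793 on the geriatric arrays. Geriatric array 3 was the lowest of all 7 and geriatric array 4 the highest, so the geriatric spread covered the young one. The log2 difference was 0.30 (SE 0.42; limma adjusted p = 0.921), 0.72 without geriatric array 3, 0.00098 without geriatric array 4 and 0.58 within slide row 1. The SD over the 8 to 10 spots kept on an array was 0.035 to 0.091 log2 units, which covers spot noise only.

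Erbb3, the main neuregulin partner of ERBB2, was the receptor with the widest spread among young samples. It gave 712, 745 and 91.8 units on the young arrays and 259, 241, 218 and 467 on the geriatric arrays. The highest and the lowest arrays were both young, and the geriatric arrays lay between. Its levels stood at -1.02, -1.04 and -4.13 in young samples and at -2.58, -2.86 and -1.51 in geriatric samples, a log2 difference of -0.25 (SE 0.93; limma adjusted p = 0.975). Young array 3 decided the value: the difference was -1.29 without it, and 0.27 without young array 1 and 0.26 without young array 2.

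Areg lies in a cluster of EGF ligand genes on chromosome 5, in the order Epgn, Ereg, Areg and Btc in the RefSeq table of GRCm38.p6. The plot of Areg and the 5 nearest genes with a probe on each side shows no common direction across the cluster. Epgn, which encodes epigen, a weak EGFR ligand, gave 47.7, 5.77 and 7.36 units in young and 31.2, 15.7, 90.6 and 286 in geriatric cells, with overlapping groups. Its probe passed the background limit on 1 young array and on 3 geriatric arrays, and its log2 difference of 2.77 (SE 1.25) did not pass (limma adjusted p = 0.717). Upstream of these genes, Cxcl1, a neutrophil chemokine, differed by 0.76 and Mthfd2l, a mitochondrial folate enzyme, by -0.46, and Cxcl2, another chemokine, was too dim to test. Downstream of Btc, the log2 differences were -0.07 for Parm1, -0.09 for Rchy1, a ubiquitin ligase, and -0.25 for Thap6, and Gm1045 (now Odaph) was too dim to test. None of the 7 tested neighbours passed. Btc alone among them had groups that did not overlap, against 12.8% of all features, and it entered the test through its geriatric arrays. Epgn entered the test in the same way, so its difference is a description and supports nothing.

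**Figure D2:**
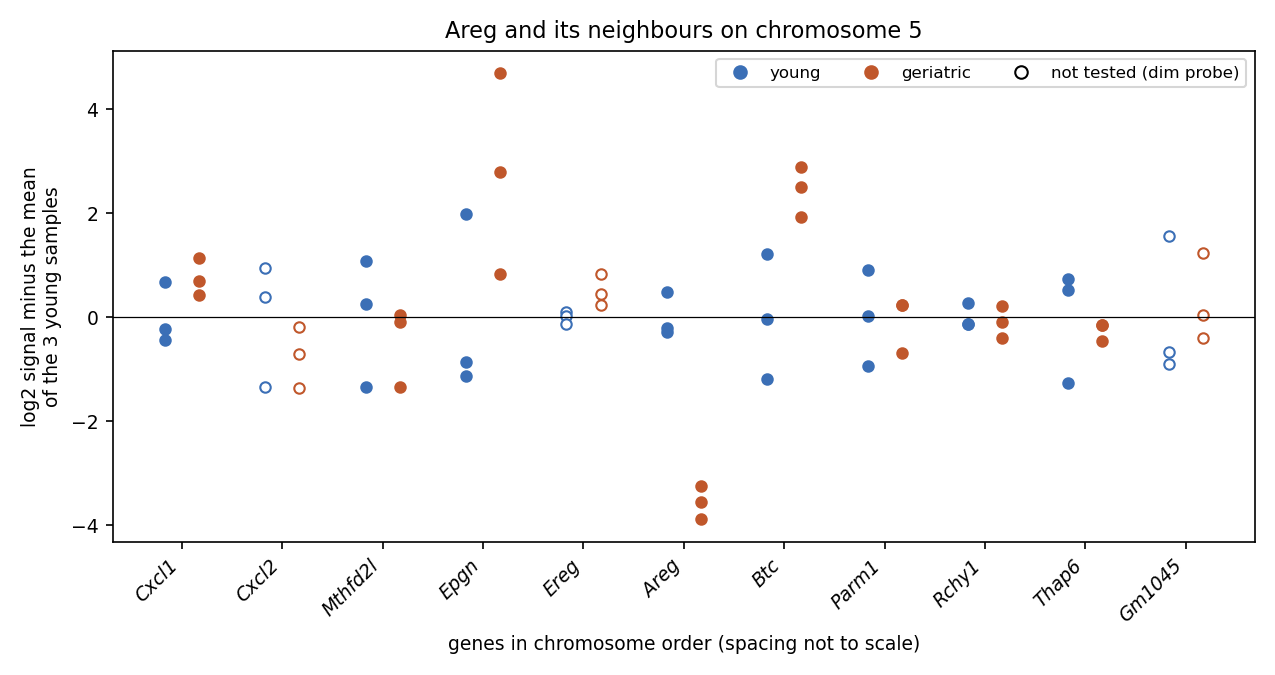
Log2 signal of Areg and its neighbours in chromosome order, minus the mean of the 3 young samples, with young samples in blue, geriatric samples in orange and open symbols for probes too dim to test. The 3 geriatric samples of Areg lie below its young samples, and those of Btc lie 1.94 to 2.90 above the young mean.

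The other members of the family formed a list of 5, of which 3 could be tested. Epgn, Nrg2 and Nrg4, the last 2 being neuregulins, were all nominally higher in geriatric cells, 0 of 3 passed, and the median difference was 0.42 against -0.0024 over all features. This median of 3 genes was not stable: it was -0.22 without young array 3, 1.07 without young array 1, 0.85 without geriatric array 3, 0.03 for the genes well above background on all 7 arrays, 0.15 in the authors' values and 1.25 within slide row 1. Epgn entered the test through its geriatric arrays, so its place among the higher genes is a description and supports nothing. The Nrg2 difference was 0.03, with levels of -3.40 to -0.89 in young and -3.35 to -0.51 in geriatric samples. The Nrg4 difference was 0.42 (SE 0.74; limma adjusted p = 0.938). A second Nrg4 probe, untested, stood at -3.32, -6.68 and -2.54 in young and at -6.86, -7.19 and -7.35 in geriatric samples, with young arrays 1 and 3 alone past the background limit. The last Nrg4 probe, below that limit on all 7 arrays, overlapped between groups (-0.34). Nrg3 and Erbb4, the remaining neuregulin and the remaining receptor, stayed below the background limit on all 7 arrays.

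Genes that release EGF ligands were measured in full, 14 of 14. The median log2 difference was 0.02, 9 were higher and 5 lower, and 0 passed. Timp3, an inhibitor of ADAM17 and of other metalloproteinases, had the smallest p: it stood at -0.05, -0.79 and -1.93 in young and at 2.21, 1.68 and 1.06 in geriatric samples. Its groups did not overlap, and its log2 difference was 2.57 (SE 0.55; limma adjusted p = 0.341). The differences were -0.49 for Adam9 and 0.56 for Adam15, both membrane metalloproteinases and both without overlap, and 0.27 for the rhomboid protease Rhbdl2. The groups were apart for 3 of 14 genes, against 12.8% of all features.

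All 22 adaptor and RAS-ERK cascade genes were tested, with a median of 0.02, 12 higher, 10 lower and 0 passed. Sos1, an exchange factor that loads RAS with GTP, passed the background limit on 0 young and on 4 geriatric arrays, through which alone it entered the test. It was at least 2.80-fold higher in geriatric cells, without passing (limma adjusted p = 0.334). Its fold and its separation are thus a description and support nothing. Its relative Sos2 differed by -0.54, Hras1 by -0.52 and the docking protein Gab2 by -0.996, each with overlapping groups. The groups were apart for 4 of 22 genes, against 12.8% of all features. Among them were Sos1, Plcg1, a phospholipase, and Pik3r1, a regulatory subunit of PI3-kinase. The log2 differences of the last 2 were 0.22 and 0.18.

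Feedback inhibitors of the receptors and of ERK, 18 of 18 tested, had a median difference of -0.09, with 8 higher and 10 lower and 0 passed. No gene of the list had groups apart, against 12.8% of all features. Spry2, an inhibitor of receptor signalling, had the smallest p in the list, at -4.10, -4.66 and -3.40 in young and -4.45, -0.93 and -2.10 in geriatric samples. The ERK phosphatases Dusp6, Dusp4 and Dusp5 differed by -0.70, -0.92 and -0.33. Of 19 genes that ERK signalling induces, 17 were tested, 13 were higher and 4 lower, and 0 passed, with a median of 0.09. Ier3, an immediate early gene, differed by 1.04 (SE 0.41; limma adjusted p = 0.668) and Etv5, an ETS factor, by -0.47 with no overlap, at 2.50 to 2.94 in young and 1.95 to 2.42 in geriatric samples. Ccnd1, which encodes cyclin D1, differed by -0.40 and Myc by -0.79, both with overlap. Among the 17 tested ERK-induced genes the groups were apart for 1, Etv5, against 12.8% of all features.

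Of 15 genes known to induce Areg in other cells, 12 were tested, 6 higher and 6 lower, with a median of -0.02 and 0 passed. The groups were apart for 2 of 12 genes, both lower, against 12.8% of all features. Adora2b, an adenosine receptor that raises cyclic AMP, stood at -0.91, -1.22 and -1.27 in young and at -2.74, -3.30 and -3.14 in geriatric samples. No geriatric sample came near the young range, and the log2 difference of -1.93 (SE 0.22) did not pass in limma (adjusted p = 0.0959). This gene was among the low ones already known when the list was drawn up, so its place in the list is no separate evidence. Crem, a cAMP-responsive transcription factor, differed by -0.44 without overlap on its brightest probe, and by -0.01 and -0.53 with overlap on its other tested probes. Ptger4, a prostaglandin receptor that also raises cyclic AMP, differed by 0.81 and Trp53, which encodes the tumour suppressor p53, by -0.44. Ptgs2, Ptger2 and Il1rl1 were too dim to test.

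**Figure D3:**
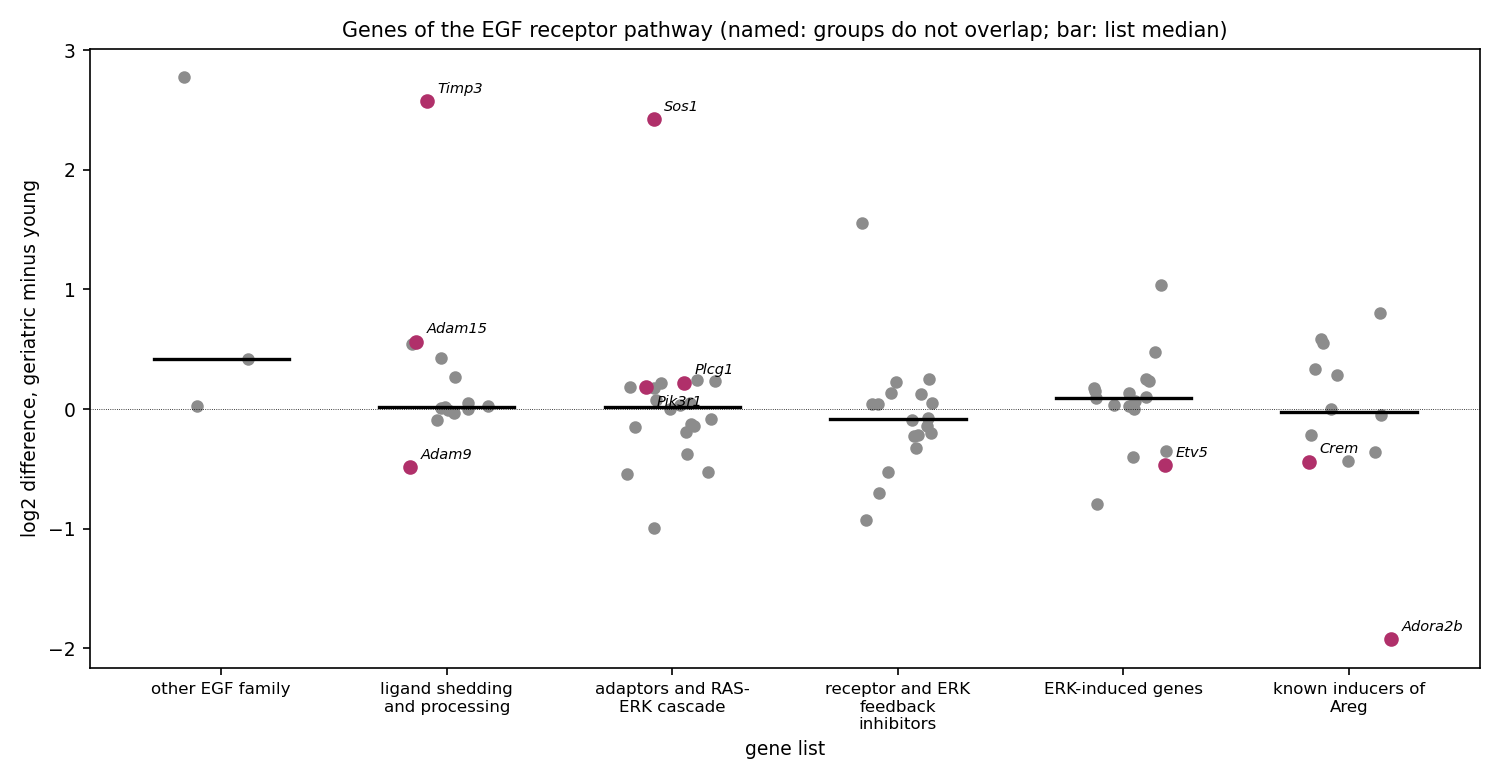
Log2 difference, geriatric minus young, of the tested genes reported here in 6 lists of the EGF receptor pathway, with genes whose groups do not overlap named in purple and list medians as bars. Medians of all lists but the 3 tested genes of the other EGF family lie between -0.09 and 0.09; Timp3, Sos1 and Adora2b lie farthest out among named genes.

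Genes were then ranked by how closely their levels followed those of Areg over the 6 samples, among 13223 named genes well above background in young cells, as a description with no test. The ranking for Areg used the values on which the set was chosen, with surrogates on all 4 geriatric arrays, so it supports nothing. The closest were Nvl, a ribosome assembly ATPase (Pearson r = 0.992), Dok2, a docking protein of tyrosine kinases (0.992), the metalloproteinase Adamts17 (0.988), Impg1 (0.987) and Kif23, a kinesin of cytokinesis (0.986). They differed widely in size: Nvl stood at 2.30 to 2.51 in young and 1.78 to 1.92 in geriatric samples, and Dok2 at -4.49 to -3.59 and -7.59 to -7.17, not well above background on any geriatric array. Impg1 stood at 1.69 to 1.73 in young samples and at 1.61 in every geriatric sample. The genes nearest to Erbb3 were Sptlc1, an enzyme of sphingolipid synthesis (0.990), Pknox2 (0.984), Coro1b (0.977), Dhx8 (0.975) and Capza1, an actin capping subunit (0.974). Those nearest to Egfr were Arap1 (0.991), Nsmaf (0.981), Sox15, a transcription factor of myoblasts (0.981), Fam53b (0.981) and Vmn1r26 (0.980).

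Markers of other cells bear on any ligand or receptor measured in a sorted population. The summed level of 11 fibro-adipogenic progenitor markers, in multiples of the 75th percentile, was 32.7 to 43.0 in young and 43.2 to 52.0 in geriatric samples. Most of it came from Col3a1 and Dcn. Of the 10 tested markers, 8 were higher in geriatric cells, against 49.7% of all features (median log2 difference 0.92). The groups were apart for 3 of 10, all higher, against 7.18% of all features, and 0 passed. Pdgfra, which defines these cells, never reached the background limit. Ly6a, which encodes the sorted-against Sca1, stood at -6.65 to -4.06 in young and -6.52 to -2.47 in geriatric samples, with overlap. Of 9 Schwann cell markers, 7 were well above background on all 7 arrays, and their sum was 27.3 to 30.3 in young and 30.5 to 35.0 in geriatric samples, most of it from Pmp22 (4.03 to 4.65 and 4.66 to 4.86 on the log2 scale). Cdh19 never reached the background limit.

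Of 12 lymphoid markers, 7 (Ptprc, Cd3e, Cd4, Cd8a, Foxp3, Cd79a and Rora) were well above background on all 7 arrays, and Cd3g, Il2ra and Ms4a1 were so on none. The sum was 8.01 to 8.95 in young and 9.14 to 10.8 in geriatric samples, most of it from Rora, at 2.74 to 2.92 and 2.88 to 3.21. Foxp3, which defines regulatory T cells, stood at -4.22 to -3.67 in young and -4.44 to -2.59 in geriatric samples, with overlap. Cd79a, a B cell receptor component, was apart on its brightest probe (log2 difference 1.27; limma adjusted p = 0.275) and overlapped on its other probe. Of 8 mast cell and basophil markers, Tpsb2 alone was well above background on all 7 arrays, and Cpa3, Fcer1a, Mcpt8 and Ms4a2 were so on none; the sums were 0.273 to 0.426 and 0.245 to 0.353.

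Macrophage markers summed to 91.6 to 101 in young and 96.3 to 115 in geriatric samples, while C1qa, C1qc, Lyz2 and Mrc1 never reached the background limit. Most of the sum came from Itgam, which encodes the sorted-against CD11b and stood at 6.54 ± 0.09 and 6.61 ± 0.15 on its brightest probe. Its other probes were far dimmer, though well above background on all 7 arrays. The first stood at -4.33 to -3.57 in young and -2.31 to -1.51 in geriatric samples, without overlap. The second stood at -2.43 to -1.99 and -2.44 to -2.02, with overlap. Sums were 7.80 to 9.65 and 8.52 to 12.2 for 9 endothelial markers. They were 1.65 to 2.54 and 2.09 to 2.52 for 7 epithelial markers, with Cdh1 and Krt8 never at the background limit. For 8 markers of mature fibres they were 3.16 to 4.20 and 3.53 to 7.58. All these sums follow their brightest genes. Among endothelial markers, Pecam1, which encodes the sorted-against CD31, stood at -0.86 in geriatric sample 4 and at -6.44 to -2.90 in the others. Tie1 stood at -1.05 in that sample and at -8.08 to -7.29 in the others. The median deviation of the 7 tested endothelial markers from their own means was 1.56 in geriatric sample 4 and -0.83 to 0.13 in the others. The part of other cells in the differences of Areg, Btc, Epgn, Erbb2 and Timp3 was not tested.

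The plot of the tested genes under 4 ways of making the values sets these differences side by side. Areg and Btc, both dim, kept their direction but moved towards 0 with normexp and with the authors' values. Hbegf, Egfr and Erbb2, all bright, gave nearly equal differences in all 4. Erbb3 was negative in all 4 and changed sign when single samples were left out.

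**Figure D4:**
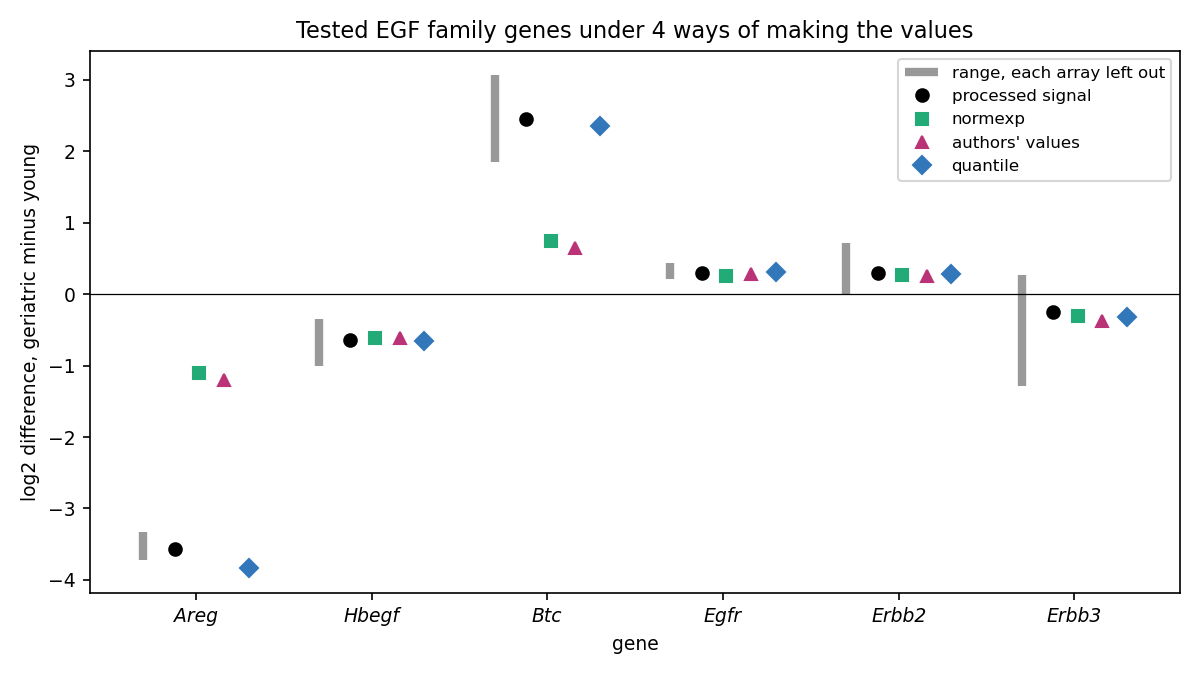
Log2 difference, geriatric minus young, of the 6 tested genes from processed signal, normexp, the authors' values and quantile normalisation, with grey bars for the range over arrays left out in turn. Areg is -3.84 to -1.10 and Btc 0.65 to 2.45 over the 4 symbols, and the grey bar of Erbb3 runs from -1.29 to 0.27.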

How the data were processed

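RNA of sorted satellite cells was measured on 7 Agilent 1-colour arrays. The scanner software was Agilent Feature Extraction, version 10.7.3.1. As deposited, and per the file headers, the intensity values were of 2 kinds: processed signals had a spatially detrended background subtracted, with surrogate values near background, and mean signals and local backgrounds were raw intensity. The authors' deposited values were on a log2 scale with a median of 8.02 per array, tracked log2 mean signal (r = 0.9995 to 0.9998 across probes) and had no value for 1 probe. Their background correction stays unknown, and the sources used here do not name the software behind them.

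Levels are log2 of the processed signal less log2 of the 75th percentile of its array, taken over all spots other than controls. Spots of a probe were averaged, with outlier spots left out. A probe was tested if well above background on at least 3 of 7 arrays, which gave 41251 probes, 10 more being left out for lack of a value in every sample. The brightest tested probe stood for its gene, giving 27393 features. Geriatric arrays 1 and 2 shared a sample name, agreed within 2 combined errors for 94.9% of spots (58.2% to 65.7% for other pairs) and were averaged. Differences were tested with limma 3.58.1 (2-sided, Benjamini-Hochberg over all features, threshold 0.05) in R 4.3.3, and tables were read with data.table (version 1.17.8), and the code was tested on simulated data. Figures used matplotlib 3.10.9 and Python 3.11.15.

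The genes, gene lists and tests were chosen with earlier results of these data known. Genes are named by a rule: every probe of the 10 genes, up to 4 genes of smallest unadjusted p per list, the whole list of other family members, 5 genes nearest in pattern to Areg, Erbb3 and Egfr, the neighbours of Areg, and Pax7 and Myf5. Genes with groups that do not overlap and the markers of other cells were named after their values were seen. Some listed genes count in the totals but are not reported here by name. Alternatives were normexp (offset 50), the authors' values, quantile normalisation, other filters and probe rules, 7 arrays as 7 samples, arrays left out, replicate numbers as a block, and slide row, read from unexplained digits of the descriptions, as a block.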

Additional observations from a re-analysis of the deposited data

How the results depend on the processing

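Directions of Areg, Hbegf, Btc, Egfr and Erbb2 held under every alternative in which each could be tested, and none of the 5 tested genes other than Areg passed under any. Erbb3 (-0.25) was -1.29 to 0.27 over arrays left out, and reversed to 0.27, 0.26 and 0.02 when young array 1, young array 2 and geriatric array 3 were dropped. Areg and Btc gave no value when all 7 arrays had to be well above background. The 7 features past the limma threshold became 4 with normexp, 4 with the authors' values, 2 with all 7 arrays well above background and 64 with 7 arrays as 7 samples. Leaving out arrays gave 0 to 8: 0 when young array 1, young array 2 or geriatric array 4 was dropped (1622, 2146 and 2114 at an unadjusted p under 0.05), 2 without young array 3 or geriatric array 3, and 1 without geriatric arrays 1 and 2 together. With slide row, as read from the descriptions, as a block, the differences rested on geriatric array 1 alone against the young arrays. No count is read from that fit, and an effect of the row was not tested.

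With replicate numbers as a block the count was 0 (2075 unadjusted by description numbers, 2411 by title numbers), and no call of the 5 genes changed. Deviations from the group means were correlated across features. The r was -0.04 for young 1 with geriatric 1 and 2 averaged, 0.03 for young 2 with geriatric 3 and 0.04 for young 3 with geriatric 4. It was -0.004 for young 3 with geriatric 3, which share a title number. Whether same-numbered samples shared more than a label was not tested. The median of the shedding list, 0.02, was 0.19 with the title block and 0.39 with slide row as a block and within row 1, and -0.023 to 0.20 over arrays left out. The median of the adaptor list, 0.02, was 0.14 with the title block and -0.10 to 0.084 over arrays left out. The median of the other EGF family, 0.42, was -0.22 to 1.07 over arrays left out and 1.25 with slide row as a block. The causes were not tested. Dim signals limit Areg and Btc, whose differences depend on the background correction.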
